A study of Mus musculus with 3 samples.

Results

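After microneedling, 697 of 5545 Langerhans-gated epidermal cells (12.6%) held the transcripts of Hpgd and Adgre4 at or above a threshold that most untreated cells also met, and these cells are described here. They were 697 of the 25062 cells of the series. Hpgd encodes the dehydrogenase that breaks down prostaglandins such as PGE2 (chromosome 8, 56747543 to 56774082, plus strand, GRCm39), and Adgre4 encodes an adhesion receptor of the F4/80 family (chromosome 17, 56056984 to 56175274, plus strand). The series profiled single-cell RNA of magnetically enriched Langerhans cells of the ear epidermis of male CD1 mice, an outbred stock, with 1 library per treatment. The microneedle mice had been given repeated punches of the ear skin. Control mice, called untreated, had been given Nair alone, a depilatory cream. A further library came from mice given croton oil, acetone and olive oil. Both treated groups were collected 48 hours after the first treatment, and the labels give no number of animals per library.

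Langerhans cells present antigen in the epidermis, where they sit among keratinocytes, sample antigen through the lectin langerin (Cd207) and hold the tissue by E-cadherin and Epcam. In intact skin they are long-lived and renew themselves locally. After injury they change shape, produce cytokines, and some leave for the lymph node, a step that needs the chemokine receptor Ccr7.

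Cells entered the gate with at least 500 detected genes, at most 10% mitochondrial counts, at least 2% of their counts from the class II genes Cd74, H2-Aa, H2-Ab1 and H2-Eb1, and at least 2 unique molecular identifiers (UMIs) of Epcam. They also had under 3 UMIs of Cd3e, Cd3g and Cd3d, and under 0.1% each of S100a8 with S100a9 and of Krt14, Krt5, Krt1 and Krt10. The cells described had Hpgd and Adgre4 together at 300 or more UMIs per 1000000 of the cell (CPM) and are called Hpgd/Adgre4-high cells. They were set against the 1905 microneedle cells of the same gate with 0 UMIs of both genes (marker-negative cells) and against untreated cells of the gate. Because these genes chose the cells, their levels are a description.

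With 1 library per group no test between treatments was possible, and no p-value is given. Levels are UMIs summed over a class of cells, as CPM, with exact Poisson intervals at 95%, and shares carry exact Clopper-Pearson intervals; both cover counting error within a library only. Changes are log2((CPM + 5)/(CPM + 5)) over genes at 20 CPM or more in either class, and a gene was counted as higher or lower at a 2-fold difference. The 3 libraries held 6945 to 9876 cells. The median Hpgd/Adgre4-high cell had 15441 UMIs, the median marker-negative cell 16592 and the median gated untreated cell 11652. The median mitochondrial share was 1.58% in the Hpgd/Adgre4-high cells and 1.24% in the marker-negative cells. Of the 697 barcodes, 1 also occurred in the untreated library and 1 in the croton oil library.

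The share of gated cells at or above 300 CPM was 12.6% (11.7 to 13.5) after microneedling, against 78.4% (77.6 to 79.2) of 9364 untreated cells and 4.03% (3.56 to 4.55) of 6228 croton oil cells. Marker-negative cells made up 34.4% of the microneedle and 2.51% of the untreated gated cells. The Hpgd/Adgre4-high cells held 414 CPM of Hpgd (402 to 426) and 147 CPM of Adgre4 (140 to 155). Untreated cells that met the same threshold held 537 and 219 CPM. They shared the threshold but not the level: both genes together were at 432 CPM in the median Hpgd/Adgre4-high cell and at 646 CPM in the median untreated cell over the threshold.

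**Figure D1:**
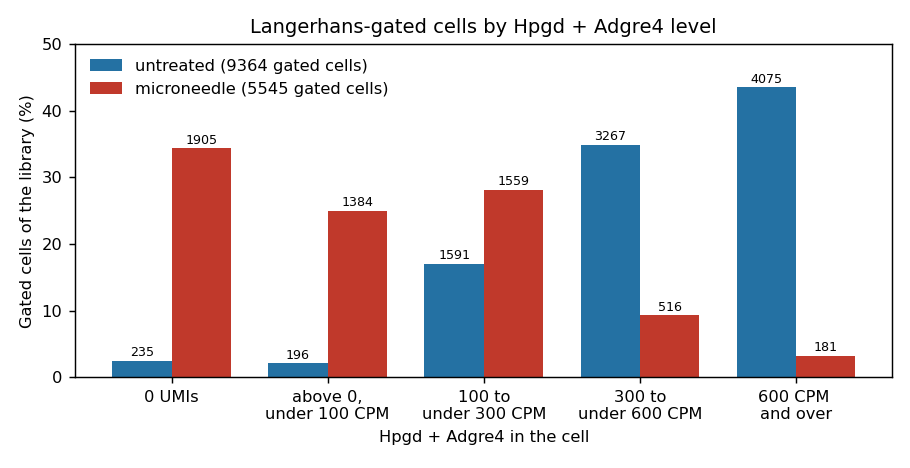
Share of Langerhans-gated cells of the untreated (blue) and microneedle (red) libraries, in percent, by the cell's Hpgd and Adgre4 level in CPM; numbers over the bars are cells. Most untreated cells lay in the 2 upper ranges (3267 and 4075 cells), while the microneedle library had 516 and 181 cells there.

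Of the 697 cells, 474 had both transcripts, 187 only Hpgd and 36 only Adgre4. The rule rested on 2 or fewer UMIs in 22 of them. Droplets with keratinocyte content in the microneedle library held 62.7 CPM of Hpgd and 15.0 CPM of Adgre4, and neutrophil droplets 15.4 and 0.514 CPM. These levels are summed over droplets, whereas the 300 CPM threshold applies to each cell. Unthinned, 46.8% of the keratinocyte droplets had an Hpgd UMI. The share of droplets that met the threshold was not counted. Of the cells near the threshold, 215 lay just under it (250 to 300 CPM) and 167 just over it (300 to 350 CPM). Under and over it, Pid1 was at 260 and 272 CPM, Nedd4 at 238 and 291, F830045P16Rik at 28.2 and 37.2, Il21r at 146 and 125, Ly6a at 92.2 and 74.5, and Timp1 at 43.2 and 24.9. The class is cut from a range of levels.

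The other marker can be read where only one chose the cells. Among the 369 microneedle cells with 300 CPM or more of Hpgd alone, Adgre4 was at 69.7 CPM (63.2 to 76.6), against 27.5 CPM (26.0 to 29.1) in the 2590 cells without Hpgd. Among the 111 cells chosen by Adgre4 alone, Hpgd was at 134 CPM (117 to 154), against 72.5 CPM (70.4 to 74.6) in the 3555 cells without Adgre4. In untreated cells the same reading gave 201 against 152 CPM of Adgre4 and 504 against 402 CPM of Hpgd. In both libraries a cell rich in one marker held more of the other, with the larger ratio after microneedling; whether the ratios differ was not tested.

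The Hpgd/Adgre4-high cells carried the Langerhans identity genes. Cd207 was at 531 CPM (518 to 544), between the 441 CPM of the marker-negative cells and the 561 CPM of untreated cells over the threshold. With every cell thinned to 3000 UMIs, 73.9% of 685 cells had a Cd207 UMI (70.4 to 77.1; 12 shallower cells left out, 97.3% unthinned), against 25% of microneedle keratinocyte droplets (49.4% unthinned, median 37379 UMIs). Of 13 identity genes compared, none differed 2-fold from the marker-negative cells (median change -0.14) or from untreated cells over the threshold (median -0.10). Mfge8, a bridging protein for the uptake of dying cells, was at 796 CPM against 1487 and 423 CPM, and Csf1r, the receptor for the survival factors CSF1 and IL-34, at 490 CPM against 715 and 293 CPM. Both stood between the marker-negative and the untreated cells.

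Markers of other cell types were summed in the same way. All 4 mast cell markers and 4 of 5 fibroblast markers were at 0 UMIs in the Hpgd/Adgre4-high cells. The summed level of 11 keratinocyte markers was 63.3 CPM, against 54.7 in marker-negative and 82.3 in untreated cells over the threshold, with none of the 11 at 0. Summed neutrophil markers (8 genes) were at 3835 CPM against 3720 and 2470 CPM, with 1 at 0 and 5 under 1 CPM. Il1r2, the decoy receptor for interleukin 1, made up nearly all of these sums, at 3828, 3707 and 2458 CPM. Monocyte and macrophage markers (12 genes) summed to 931 CPM against 1024 and 774 CPM, with none at 0 and 6 under 1 CPM. The monocyte gene Ly6c2 had 1 UMI. T cell markers (10 genes, 4 at 0) summed to 17.7 CPM against 17.5 and 8.54, and conventional dendritic cell markers (7 genes, 1 at 0) to 121 CPM against 111 and 156. The melanocyte sum (6 genes) was 13.7 CPM against 44.0 in marker-negative cells and 11.3 in untreated ones, with 1 at 0. The part of this RNA in the comparisons was not tested. Ccr7 had a UMI in 5 of the 697 cells (0.717%) and in 2.20% of the marker-negative cells. After thinning to 3000 UMIs it had one in 0 of 685 cells and in 1.07% of 1866 marker-negative cells. The 0 allows a share of cells with a UMI at that depth of up to 0.537%.

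The first comparison asked how the Hpgd/Adgre4-high cells differed from marker-negative cells of the same injured skin. Of 6660 genes, 39 (0.586%) were higher by 2-fold or more and 88 (1.32%) lower, 1.91% in both directions together. The higher genes included further transcripts of untreated Langerhans cells. The lower genes included the chemokine Ccl22, the complement chains C1qa and C1qc and 5 interferon-response genes. When cells were classed by Hpgd alone, 11 genes were higher and 49 lower, and by Adgre4 alone 66 and 122. H2-M5, Zfp831 and Colgalt2 were under 2-fold by Hpgd alone.

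Among the higher genes, F830045P16Rik was at 41.3 CPM (37.6 to 45.2) in the Hpgd/Adgre4-high cells and 5.69 CPM (4.90 to 6.57) in the marker-negative cells, a change of 2.11. Pid1, named for its phosphotyrosine interaction domain, was at 292 CPM (282 to 302) against 93.6 (90.3 to 97.0), a change of 1.59. Untreated cells over the threshold held 86.8 and 568 CPM of these genes, so the Hpgd/Adgre4-high cells were above their neighbours and below untreated cells. H2-M5, a nonclassical class I gene, followed that order at 125, 38.1 and 216 CPM. Ffar2, a receptor for short-chain fatty acids, did so at 94.5, 32.7 and 156 CPM. So did Immp2l, part of a mitochondrial inner membrane peptidase, at 168, 56.7 and 230 CPM, and the zinc finger gene Zfp831 at 27.3, 6.18 and 36.9 CPM. Nav2, a cytoskeleton-associated neuron navigator, broke the order: its 77.7 CPM (72.6 to 83.0) exceeded both the 19.0 CPM of the marker-negative and the 52.4 CPM (50.9 to 53.9) of the untreated cells. Microneedle neutrophil droplets held 69.9 CPM of Nav2, and the part of free RNA in its level was not tested.

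A list of 5 resting genes named earlier for their low level after croton oil was higher throughout. Nedd4 (a ubiquitin ligase), Inpp4b (a phosphoinositide phosphatase), Pid1, 5730522E02Rik and Sel1l2 were all over 2-fold higher than in marker-negative cells, with a median change of 1.28 against -0.01 over all genes. Inpp4b was at 423 CPM against 175, and Nedd4 at 286 against 115. Against untreated cells over the threshold none of the 5 differed 2-fold, and the median change was -0.68. Within the untreated library all 5 were also higher in cells over the threshold than in marker-negative cells, with Inpp4b past 2-fold. The median change there was 0.80, against 0.06 over all genes. The list had been chosen on the libraries of this series, though on another treatment, and is no independent evidence of direction.

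Among the lower genes, Ccl22, a chemokine for CCR4-bearing T cells, had 11 UMIs in all Hpgd/Adgre4-high cells (0.970 CPM, 0.484 to 1.74), against 25.9 CPM (24.2 to 27.7) in the marker-negative cells. Tnfrsf9, the costimulatory receptor 4-1BB, was at 27.2 CPM against 119. Pmepa1, a feedback inhibitor of TGF-beta signalling, was at 16.4 CPM against 82.0. The changes were -2.37, -1.94 and -2.02, and Ccl22 was at its level in untreated cells over the threshold (1.29 CPM). Srgn (serglycin, a granule proteoglycan), Ece1 (endothelin-converting enzyme), Nrp2 (neuropilin 2) and Capg (an actin-capping protein) had changes of -1.91 to -1.90. In the untreated library each of these lower genes was also lower in cells over the threshold than in marker-negative cells. Ccl22 was at 1.29 against 695 CPM there, and Tnfrsf9 at 5.88 against 90.4 CPM. Without cells that had 3 or more UMIs of Ccr7 and Fscn1, which removed 2 of the 697 and 24 of the 1905 cells, 40 genes were higher and 85 lower.

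Of 3 complement genes compared, C1qa and C1qc were 2-fold lower, and Cfp (properdin) had a change of -0.51. C1qa, a chain of the first complement component, was at 315 CPM (305 to 326) against 663 (654 to 672), and C1qc at 14.1 against 66.0 CPM. All 11 interferon-response genes compared lay below 0 (median -0.82), with Isg15, Irf7, Bst2, Rtp4 and Xaf1 past 2-fold. Irf7, a transcription factor that amplifies interferon production, was at 10.9 CPM (9.10 to 13.0) against 53.6 (51.1 to 56.2). Against untreated cells over the threshold, the 6 interferon genes compared were all above 0 and none passed 2-fold (median 0.45).

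Of 13 genes compared from the cholesterol list, Hmgcs1, Sqle, Idi1, Fdps and Fdft1 were 2-fold lower than in marker-negative cells, and all 13 had changes below 0 (median -0.88). Fdps, which makes farnesyl diphosphate, was at 57.9 CPM (53.6 to 62.5) against 179 (175 to 184). Against untreated cells over the threshold all 13 had changes above 0 (median 1.06), and 7 passed 2-fold, among them Sqle, which makes squalene epoxide, at 60.0 against 17.8 CPM. Il1b and Cxcl2 followed the same order. Il1b was at 190 CPM (182 to 198), against 484 in marker-negative and 66.8 in untreated cells over the threshold, and Cxcl2, a neutrophil chemokine, at 358, 857 and 190 CPM. Of 7 inflammatory genes compared with the marker-negative cells, 3 were 2-fold lower (Il1b, Cxcl1 and Cxcl2; median -0.65). Against untreated cells over the threshold Il1b was 2-fold higher and Tnf 2-fold lower (median 0.41).

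The prostaglandin and leukotriene genes around Hpgd showed little of this. Of 12 compared with marker-negative cells, only Ptgs2, the inducible cyclooxygenase, passed 2-fold (10.8 against 27.9 CPM), and the list's median change was 0.03. Ptgs1, the constitutive cyclooxygenase, was at 380 CPM (369 to 391) against 384 (378 to 391). Alox5, the first enzyme of leukotriene synthesis, was at 393 CPM against 343, and Ltc4s, leukotriene C4 synthase, at 549 against 431. The PGE2 receptors Ptger3 and Ptger4 were at 69.0 against 42.3 and 57.5 against 39.5 CPM, both under 2-fold.

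**Figure D2:**
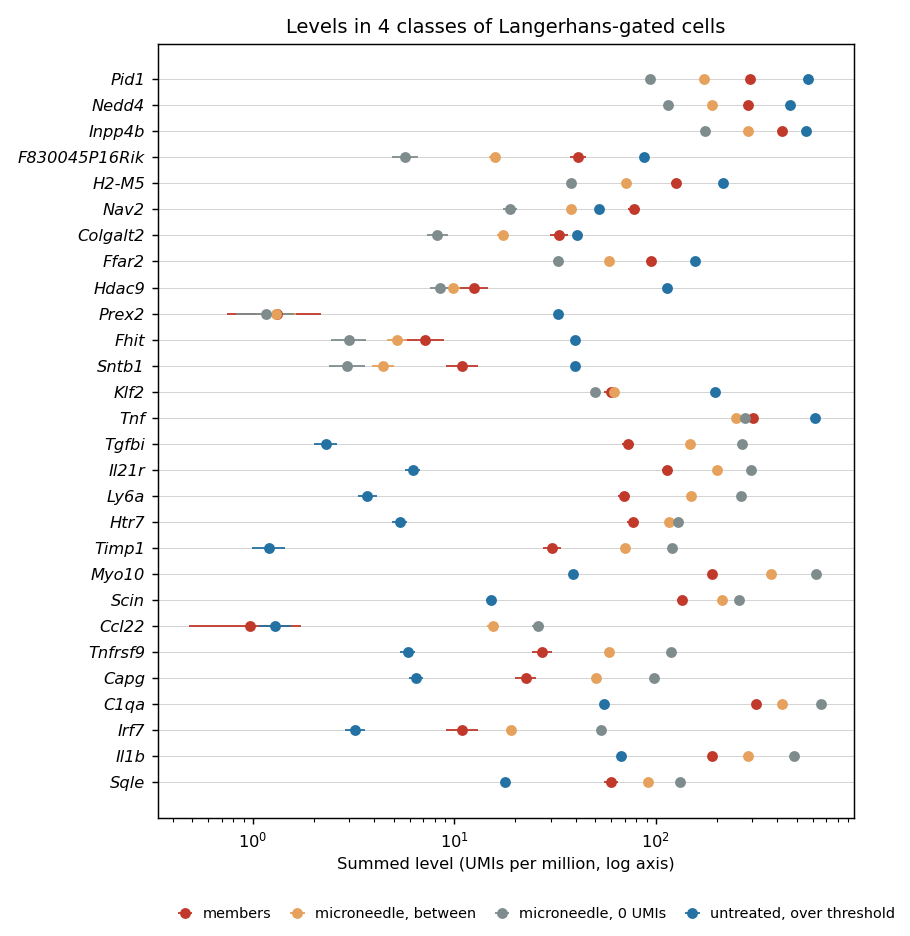
Summed level of 28 genes, in CPM on a log axis, in Hpgd/Adgre4-high cells (members, red), microneedle cells between 0 and 300 CPM of the markers (orange), marker-negative microneedle cells (grey) and untreated cells over the same threshold (blue); lines are exact 95% Poisson intervals. For most genes the red point lies between grey and blue, whereas for Hdac9, Prex2, Klf2 and Tnf it lies beside the grey one.

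The second comparison asked how far these cells matched untreated Langerhans cells. Against the 7342 untreated cells with the same Hpgd and Adgre4 threshold, 115 of 6568 genes (1.75%) were higher by 2-fold or more and 42 (0.639%) lower, 2.39% in all. Against all 9364 gated untreated cells, 109 of 6563 genes (1.66%) were higher and 39 (0.594%) lower, 2.26% in all. Of the 10 genes with the largest change above untreated cells over the threshold, 9 had changes below 0 against the marker-negative cells, and Gm50022 was 2-fold higher there.

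Tgfbi, a secreted matrix protein, was at 72.8 CPM (68.0 to 78.0) in the Hpgd/Adgre4-high cells, 2.30 CPM (2.00 to 2.63) in untreated cells over the threshold and 268 CPM in marker-negative cells. Il21r, the receptor for interleukin 21, was at 114, 6.20 and 296 CPM, and Ly6a (Sca-1) at 69.8, 3.70 and 263 CPM. These 3 genes had the largest changes against untreated cells over the threshold, led by Tgfbi at 3.42. After thinning to 3000 UMIs, an Il21r UMI was found in 16.5% of the Hpgd/Adgre4-high cells (40.9% unthinned), 44.5% of marker-negative cells and 1.54% of untreated cells over the threshold, against 1.56% of microneedle keratinocyte and 4.40% of neutrophil droplets. Tgfbi and Ly6a are less specific here: Tgfbi had a UMI in 14.9% of the Hpgd/Adgre4-high cells but in 32 of 64 keratinocyte and 49.8% of neutrophil droplets, and Ly6a in 14.7% but in 54.7% of keratinocyte droplets. The part of free RNA in these shares was not tested.

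Other injury genes followed. Htr7, a serotonin receptor, was at 77.3 CPM against 5.35 in untreated cells over the threshold, and Scin, an actin-severing protein, at 134 against 15.2. Timp1, an inhibitor of matrix proteases, was at 30.5 against 1.20 CPM. The secreted or membrane-bound protein Scube1 was at 64.6 against 5.04 CPM and close to the marker-negative cells (93.0 CPM). All 8 genes named earlier as highest after microneedling were over 2-fold above untreated cells over the threshold (median 2.84), and 6 of the 8 were over 2-fold below marker-negative cells (median -1.42). That list was chosen on these libraries, so its direction against untreated cells is no independent evidence.

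Some resting genes were at or near the level of the marker-negative cells, far under untreated cells that met the same threshold, so the name resting-like holds only in part; others lay between. Of 6 genes named earlier as lowest after microneedling, 5 were 2-fold lower than in untreated cells over the threshold (Hdac9, Prex2, Fhit, Sntb1 and Mef2c; median -1.69), a list chosen on these libraries. Hdac9, a class II histone deacetylase, was at 12.5 CPM (10.5 to 14.8), against 114 CPM (112 to 116) in untreated cells over the threshold and 8.51 CPM (7.54 to 9.57) in marker-negative cells. Prex2, an exchange factor for Rac, was at 1.32 CPM (0.740 to 2.18), against 32.6 and 1.16. With cells thinned to 3000 UMIs, 2.19% of 685 cells had an Hdac9 UMI (7.17% unthinned), against 21.7% of untreated cells over the threshold, 1.56% of microneedle keratinocyte droplets (1 of 64) and 2.56% of neutrophil droplets (7 of 273). The part of free RNA in the Hdac9 values was not tested. Fhit, a dinucleoside hydrolase, was at 7.14 CPM (5.67 to 8.88) against 39.6 CPM, with an interval of 2.44 to 3.66 in marker-negative cells. Keratinocyte droplets held more, at 143 CPM in the microneedle and 108 CPM in the untreated library, and the keratinocyte sum given above was also highest in the untreated cells; its part in the Fhit values was not tested. Mef2c, a transcription factor, was at 20.7, 60.9 and 9.86 CPM in the Hpgd/Adgre4-high, untreated and marker-negative cells. Sntb1, a scaffold protein of the dystrophin complex, was at 10.9, 39.8 and 2.94 CPM in the same order. These 3 genes were above the marker-negative level by intervals that did not overlap, unlike Prex2 and Ly86. Ly86, the partner of the Toll-like receptor relative CD180, was at 9.52, 36.3 and 7.90 CPM. The serotonin transporter gene Slc6a4 was at 9.44 against 32.9 CPM. Sntb1 was under 2-fold against gated untreated cells when cells were classed by Adgre4 alone.

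The early-response genes Jun and Klf2 were 2-fold lower than in untreated cells. Jun was at 839 CPM against 1906 in untreated cells over the threshold and 596 in marker-negative cells, and Klf2, a transcription factor of quiescent cells, at 60.0, 196 and 49.8 CPM. Of 14 immediate early genes compared, these 2 passed 2-fold, and the median change was -0.54. Tnf was at 302 CPM against 614, with 277 in marker-negative cells. Krt2, a keratin of keratinocytes, was at 2.65 against 22.2 CPM, beside the lower keratinocyte sum given above; the part of that RNA in the other lower genes was not tested.

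**Figure D3:**
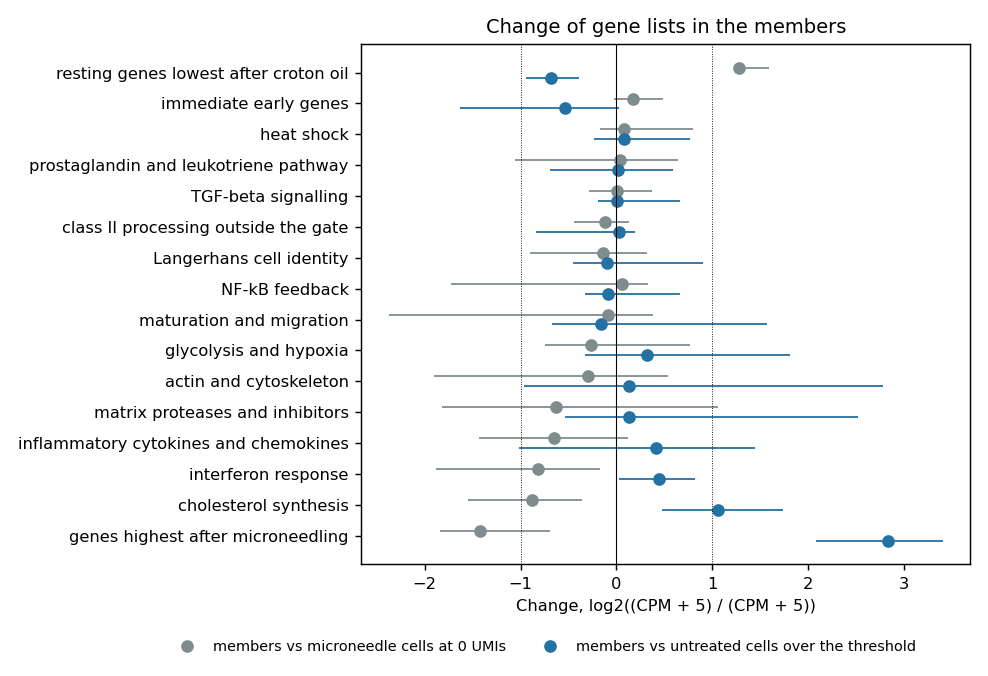
Change of gene lists in the Hpgd/Adgre4-high cells against marker-negative microneedle cells (grey) and untreated cells over the same threshold (blue), as log2((CPM + 5)/(CPM + 5)); points are medians over the list's genes at 20 CPM or more, lines reach from the lowest to the highest gene and dotted lines mark 2-fold. The medians of the interferon, cholesterol, inflammatory and injury lists lie left of 0 in grey and right of 0 in blue, and that of the resting list the other way round.

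The place between both states could be counted over genes that the choice of cells did not use. Of 6818 genes, 344 (5.05%) were higher by 2-fold or more and 213 (3.12%) lower (8.17% in all) in marker-negative microneedle cells than in gated untreated cells. For 336 of the 344 (97.7%) and 207 of the 213 (97.2%), the level in the Hpgd/Adgre4-high cells lay between both. On the log2 scale the median gene stood 55.5% of the way from untreated to marker-negative for the 344 genes (interquartile range 40.1 to 70.1) and 47.6% for the 213 (32.9 to 63.1). Lying between was shared by the 2943 cells between 0 and 300 CPM of the markers, for 311 of the 344 genes (90.4%) and 208 of the 213 (97.7%). Their medians were 81.5% and 75.4%.

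Single genes departed from the middle. Sult1a1, a sulfotransferase, was at 74.6 CPM in the Hpgd/Adgre4-high and 72.2 in untreated gated cells, against 29.4 in marker-negative cells, and Adra1a, an alpha-1 adrenergic receptor, at 87.1, 87.5 and 37.3 CPM. Cacna1e, a voltage-gated calcium channel subunit, was at 919 CPM, near the 1059 CPM of untreated cells and above the 408 CPM of marker-negative cells. The genes of this paragraph were picked for their place after the values were seen. At the other end, Ccl17, Gm15501, Thnsl1 and Cfap210 lay beyond the marker-negative level, and Prex2, Krt2 and Ly86 stood 98.5%, 93.6% and 89.5% of the way. The 24.2 CPM of Ccl17, a further CCR4 chemokine, in untreated gated cells came from the 235 marker-negative ones (1301 CPM). Untreated cells over the threshold held 0.331 CPM, near the 0.0882 CPM (1 UMI) of the Hpgd/Adgre4-high cells, with 4.28 CPM in marker-negative microneedle cells.

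**Figure D4:**
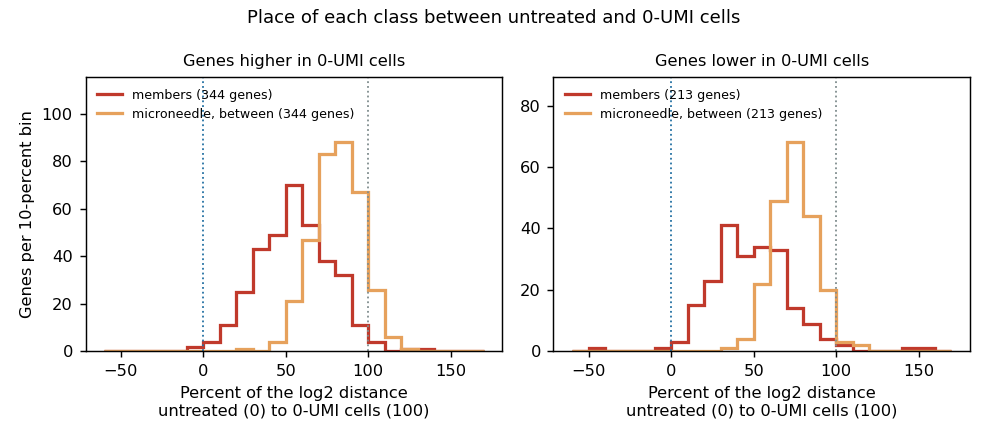
Number of genes by their place on the log2 scale from untreated gated cells (0) to marker-negative microneedle cells (100), for genes 2-fold or more higher (left, 344) or lower (right, 213) in the latter; red, Hpgd/Adgre4-high cells; orange, cells between 0 and 300 CPM of the markers. The red distributions centre near the middle, at 55.5% and 47.6%, and the orange ones further right, at 81.5% and 75.4%.

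To show the spread behind the summed levels, single cells were read at 1 depth of 10000 UMIs (92 of the 697 cells were shallower and left out). The 8 injury genes (Scin, Myo10, Htr7, Timp1, Il21r, Ly6a, Gm17276 and 4930523C07Rik) gave a median of 3 UMIs per Hpgd/Adgre4-high cell, against 14 in marker-negative and 0 in untreated cells over the threshold. The spread was wide: the 10th percentile was 0 UMIs and the 90th was 17. None of the 8 was seen in 21.2% of the 605 cells (18.0 to 24.6), against 2.93% of marker-negative and 62.1% of untreated cells over the threshold. The 5 resting genes gave a median of 9 UMIs, against 3 and 16. The counts per cell thus ranged from 0 to beyond the marker-negative median; how much of that range is counting noise was not tested.

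**Figure D5:**
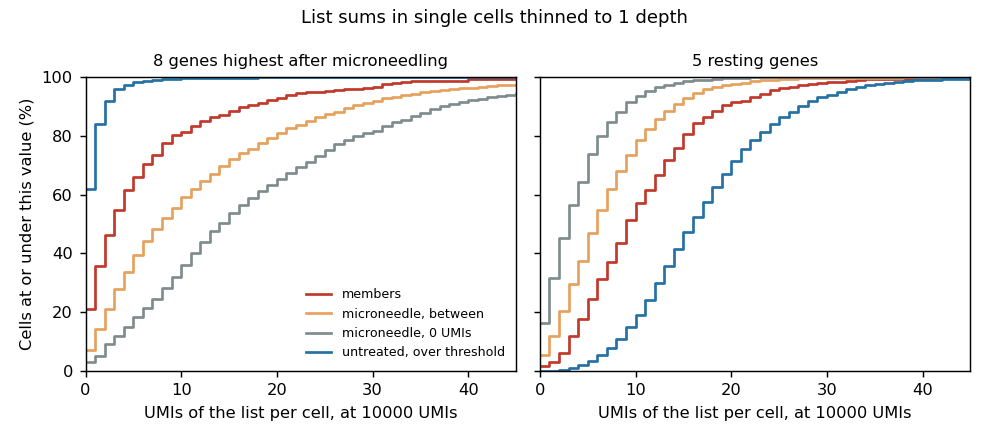
Percent of cells at or under a given number of UMIs of the 8 injury genes (left) and the 5 resting genes (right), each cell thinned to 10000 UMIs; red, Hpgd/Adgre4-high cells; orange, cells between 0 and 300 CPM; grey, marker-negative cells; blue, untreated cells over the same threshold. The red curve runs between blue and grey in both panels, starting at 21.2% on the left.

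Finer ranges of the markers showed a graded order that flattened within the Hpgd/Adgre4-high cells. The summed injury genes went from 1916 CPM in marker-negative cells to 1579 CPM under 100 CPM of the markers, 974 CPM from 100 to 300 CPM, 709 CPM from 300 to 600 CPM and 675 CPM above. The 181 cells at 600 CPM and over were thus little lower than the 516 below them, and stood above the 68.3 CPM of the 4075 untreated cells in that range. The resting list ran from 402 to 1075 CPM over the same ranges, with 1772 CPM in untreated cells at 600 CPM and over. Of the 88 lower genes 39 were ordered over all 5 ranges, and of the 39 higher genes 17. These genes were chosen by a difference between the ends of the same ranges, so an order was partly set in advance. The share over all genes was not counted.

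Levels also differed by which marker a cell carried. The 187 cells with only Hpgd had 123 CPM of Ly6a, 191 of Il21r and 295 of Myo10, a filopodial myosin. The 474 cells with both had 50.5, 83.8 and 149 CPM. Pid1 was at 214 CPM with only Hpgd and at 320 CPM with both. The 36 cells with only Adgre4 had 74.4 CPM of Ly6a, 156 of Il21r, 268 of Myo10 and 284 of Pid1, between the other kinds. H2-M5 was at 161 CPM in these cells, against 137 with both and 89.0 with only Hpgd. No intervals are given for these kinds, and their order was not tested. Median depth was 15054 UMIs with only Hpgd, 15728 with both and 10902 with only Adgre4.

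Low and high marker cells were also compared within the untreated library, where 20 of 6706 genes (0.298%) were 2-fold higher and 212 (3.16%) 2-fold lower (3.46% in all) in the 7342 high than in the 235 marker-negative cells. The untreated marker-negative cells were shallower (median 8760 UMIs) and had more of some genes of other myeloid or migrating cells. Their summed monocyte and macrophage markers (12 genes) were not higher, at 702 against 774 CPM in the high cells. Cd207 was at 582 against 561 CPM. Clec7a, the beta-glucan receptor dectin-1, was at 601 CPM against 37.1 in the high cells, and Mmp12, a macrophage elastase, at 536 against 4.37. Ccr2, a chemokine receptor of monocytes, was at 22.4 against 0.299 CPM, and Ccr7 at 33.3 against 0.171. In the microneedle library Clec7a was at 39.2 CPM in Hpgd/Adgre4-high and 49.1 CPM in marker-negative cells, Mmp12 at 8.02 and 7.22 CPM, Ccr2 at 0.617 and 0.490 CPM, and Ccr7 at 0.441 and 7.50 CPM. Ccr7 was thus low in the marker-high cells of both libraries, while Clec7a, Mmp12 and Ccr2 were high in the untreated marker-negative cells alone among these classes. Of the 38 higher genes of the first comparison also compared here, 37 were higher in the untreated high cells, 3 of them 2-fold. All 53 lower genes compared here were lower, 40 of them 2-fold. Over all 6279 genes compared in both libraries, 58.9% were higher and 41.1% lower in the untreated high cells, with 10 and 115 past 2-fold.

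Among gated cells, 1 noncoding RNA was seen in the treated libraries only, and in the microneedle library its level differed between the marker classes. Gm50022 (chromosome 17, 24998677 to 25000958, plus strand, GRCm39) had a UMI in 0 of 9364 untreated gated cells, in 31.6% of Hpgd/Adgre4-high cells (28.1 to 35.2), 9.29% of marker-negative and 1248 of 6228 croton oil cells. In the croton oil library it was at 23.3 CPM (18.2 to 29.3) in the 251 cells over the threshold and 20.8 CPM (19.9 to 21.8) in all gated cells. The 0 allows a share of untreated gated cells with a UMI of up to 0.0394%, and 3 of 163 untreated keratinocyte droplets had one. Thinned to 3000 UMIs, the shares were 9.20% of the Hpgd/Adgre4-high and 2.20% of the marker-negative cells, against 6.59% of microneedle neutrophil and 1.56% of keratinocyte droplets. A share of 22.7% of microneedle cells with a Gm50022 UMI were Hpgd/Adgre4-high, against 10.4% of those without. Gm15501, another noncoding RNA (chromosome 7), was at 21.7 CPM in cells with a Gm50022 UMI, 73.4 CPM in cells without, and 173 CPM in untreated cells. The stock is outbred and animals cannot be told apart here, so the part of animals in these values was not tested. Among cells without a Gm50022 UMI alone, 40 genes were 2-fold higher and 85 lower than in marker-negative cells, and 338 of 347 and 212 of 218 genes lay between untreated and marker-negative cells.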

How the data were processed

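Gene expression was measured in 3 Chromium 3' single-cell libraries. The deposited values are whole-number UMI counts per gene and cell, written by Cell Ranger 8.0.0 per the file headers, on GRCm39 per the submitters' processing notes; no other step is given in the sources used here. Coordinates are those of GENCODE M39 on the same build. The gate, the marker rule, the gene lists and the comparisons were chosen with earlier results of these data known. Cells of a class were summed and scaled to UMIs per 1000000 (CPM), with a pseudocount of 5 CPM and a minimum of 20 CPM, leaving out Hpgd, Adgre4 and the gate genes. Named genes were the 10 with the largest change in each direction and comparison, plus members of the lists; others are said to have been picked later. Some genes that this rule names are not reported here. Of 397 listed genes, 394 were found among 34289 features. Scrublet's automatic threshold marked 1 untreated and 0 microneedle cells and had not worked, so doublets were kept and the highest scores removed as an alternative, at 0.8% per 1000 cells. Thinning drew UMIs without replacement. The change calculation was tested on simulated data. Tools were Python 3.11.15, numpy 2.4.6, scipy 1.17.1, scanpy 1.11.5 and edgeR 4.0.16 (TMM scaling only).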

Additional observations from a re-analysis of the deposited data

Results flagged for a closer look

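Mgl2, a galactose-binding uptake lectin, went in opposite directions in both libraries and was an exception. Of 38 genes 2-fold higher in Hpgd/Adgre4-high than in marker-negative microneedle cells and compared in both libraries, 37 kept their direction. So did all 53 lower ones. Over all genes compared in both, 58.9% were higher and 41.1% lower in the untreated high cells. In the microneedle library Mgl2 was higher in the Hpgd/Adgre4-high than in the marker-negative cells (27.2 against 9.46 CPM, a change of 1.16). In the untreated library it was lower in the cells over the threshold than in the marker-negative ones, by a change of -1.34. Without cells carrying 3 or more UMIs of Ccr7 and Fscn1 the changes were 1.15 and -1.37. The untreated marker-negative cells also carried Clec7a at 601 CPM and Ccr2 at 22.4 CPM, genes of other myeloid cells. The microneedle ones held 49.1 and 0.490 CPM. Summed monocyte and macrophage markers were at 702 CPM in the untreated and 1024 CPM in the microneedle ones. The part of other myeloid cells was not tested. The difference between the libraries was not tested, since each treatment has 1 library.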

How the results depend on the processing

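No paired analysis was possible because each treatment has 1 library and the labels carry no replicate numbers. Animals, capture and treatment cannot be told apart, and changes of genes near 20 CPM rest on few UMIs. The share of Hpgd/Adgre4-high cells was 21.6% at a threshold of 200 CPM, 4.71% at 500 CPM and 15.2% with the rule applied after thinning to 5000 UMIs. Chosen after seeing the data, the split by Gm50022 gave 10.4% without and 22.7% with a UMI. The 39 genes higher than in marker-negative cells became 25 at 200 CPM, 63 with a pseudocount of 1 CPM, 22 at a minimum of 50 CPM, 11 and 66 with cells classed by Hpgd or Adgre4 alone, and 62 among cells with Gm50022. The 88 lower genes became 49 by Hpgd alone. A minimum of 50 CPM, which tests fewer genes, left 74 higher and 20 lower against untreated cells over the threshold, 71 and 18 against all gated untreated cells, and 126 of 129 genes between on the lower side. The counts of genes between were not run under TMM scaling. By Adgre4 alone, 64 genes were lower than in gated untreated cells. The share of cells with none of the injury genes was 17.6% at 200 CPM and 26.2% by Adgre4 alone. Apart from the smaller number of genes at 50 CPM, the cause was not tested. No change past 2-fold of a listed or named gene reversed: direction was kept in 866 of 867 values against marker-negative cells, 730 of 731 against gated untreated cells and 747 of 748 against untreated cells over the threshold, the exception being Gm50022 where cells with it were left out.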
